A study of Mus musculus with 15 samples.

Results

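The peaks of Polycomb repressive complex 1 (PRC1) subunits around the Dlx homeobox genes were taken from 5 ChIP-seq peak lists of mouse cells of the E14Tg2A embryonic stem cell line. Members were the peaks that overlapped 1 of 3 windows of the mm9 build by at least 1 bp. The window of Dlx1 and Dlx2 spanned 80 kb of chromosome 2 (71330001 to 71410000), that of Dlx5 and Dlx6 70 kb of chromosome 6 (6790001 to 6860000), and that of Dlx3 and Dlx4 80 kb of chromosome 11 (94950001 to 95030000). They held 66 of the 30692 peaks of the 5 lists, and all 66 lay wholly inside a window. By list, 12 of 4165 MES Mel18 peaks, 9 of 3679 MES Cbx2 peaks, 14 of 8641 MES Ring1b peaks, 15 of 7614 MES RYBP peaks and 16 of 6593 ESC Mel18 peaks were members. MES are early cardiac mesoderm precursors that were derived from these stem cells with BMP4, and ESC are the undifferentiated stem cells, grown in 2i medium with LIF. All 5 libraries came from cells with no genetic change named in the labels. Each list came from 1 library, so no difference between cell states or antibodies has a replicate check, and no test between lists was made. Read depth was unknown, and the number and width of peaks also depend on depth and peak calling.

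Dlx genes are the vertebrate relatives of the Drosophila gene Distal-less and encode homeodomain transcription factors. In mouse they lie in convergently transcribed pairs, each on the same chromosome as a Hox cluster. Dlx1 and Dlx2 act in the making of forebrain GABAergic interneurons and in the branchial arches. Dlx5 and Dlx6 pattern the lower jaw and the limb, and Dlx5 also acts in bone formation. Dlx3 acts in placenta, epidermis, hair and teeth. The pairs are known Polycomb targets in embryonic stem cells. PRC1 ubiquitinates histone H2A through its catalytic subunit Ring1b. Mel18 (Pcgf2) belongs to the PCGF proteins that pair with Ring1b. Cbx2 reads the H3K27me3 mark through its chromodomain and marks the canonical form of the complex, whereas RYBP takes the place of Cbx proteins in variant forms.

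Polycomb complexes in mammals lie mostly at CpG-rich promoters, and the promoters of the pair on chromosome 2 are shown for that reason. Promoter sequences from RefSeq (build GRCm38.p6) were matched for 2 of the 6 genes, Dlx1 and Dlx2. Each ran from 250 bases before to 50 bases after the annotated start, and CpG dinucleotides are in capitals.
Dlx1 (chr2:71529195-71529494, plus strand): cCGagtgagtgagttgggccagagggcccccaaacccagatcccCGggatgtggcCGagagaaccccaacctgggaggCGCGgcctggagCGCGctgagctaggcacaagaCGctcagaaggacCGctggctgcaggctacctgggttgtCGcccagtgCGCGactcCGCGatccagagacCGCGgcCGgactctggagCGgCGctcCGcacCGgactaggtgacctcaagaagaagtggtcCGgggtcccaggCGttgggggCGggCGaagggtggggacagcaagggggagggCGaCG
Dlx2 (chr2:71546705-71547004, minus strand): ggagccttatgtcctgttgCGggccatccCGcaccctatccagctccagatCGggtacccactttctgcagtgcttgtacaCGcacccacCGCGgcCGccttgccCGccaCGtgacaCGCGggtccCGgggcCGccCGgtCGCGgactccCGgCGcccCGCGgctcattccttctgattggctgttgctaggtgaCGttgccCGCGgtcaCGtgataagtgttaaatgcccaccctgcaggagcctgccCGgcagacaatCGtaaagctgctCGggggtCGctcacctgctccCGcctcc
The Dlx1 sequence held 27 CpG dinucleotides and 69.3% G and C, and the Dlx2 sequence held 29 and 66.3%, against medians of 7 and 52.7% over 32851 promoter sequences of the same length. At least as many CpG dinucleotides were present in 15.5% of all promoters for Dlx1 and in 12.9% for Dlx2. The homeodomain core TAATTA, which reads the same on both strands, was found in neither sequence and in 5.29% of all promoters. The promoters are on another build than the peaks and were not placed on them, so peaks are described by window and not by gene. In RefSeq's order along the chromosome, Dlx1 is followed by the antisense RNA gene Dlx1as and by Dlx2, Dlx6 is followed by Dlx6os2 and Dlx5, and Dlx3 is followed by Gm38659 and Dlx4.

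All 5 lists had peaks at all 3 pairs, and the Dlx5/Dlx6 pair had the longest cover in every list. In the Dlx5/Dlx6 window, MES Mel18 peaks covered 37.4 kb, Cbx2 37.5 kb, Ring1b 35.8 kb and RYBP 19.9 kb, and ESC Mel18 peaks covered 23.4 kb. In the Dlx1/Dlx2 window, MES Mel18 covered 26.0 kb, Cbx2 28.6 kb, Ring1b 25.4 kb and RYBP 16.8 kb, and ESC Mel18 covered 19.0 kb. In the Dlx3/Dlx4 window, MES Mel18 covered 16.3 kb, Cbx2 18.2 kb, Ring1b 12.4 kb and RYBP 7.02 kb, and ESC Mel18 covered 10.2 kb. At all 3 pairs Cbx2 covered the most, then MES Mel18, Ring1b, ESC Mel18 and RYBP, although Cbx2 and MES Mel18 were nearly equal at Dlx5/Dlx6. When only the 50% of peaks with the highest scores were kept per list, MES Mel18 covered 36.5 kb and Cbx2 36.3 kb there, which turned their order round. As a share of the window, MES Mel18 cover was 53.4% at Dlx5/Dlx6, 32.5% at Dlx1/Dlx2 and 20.4% at Dlx3/Dlx4. Over the chromosomes, from the first to the last peak of each, the whole MES Mel18 list covered 0.466%.

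**Figure D1:**
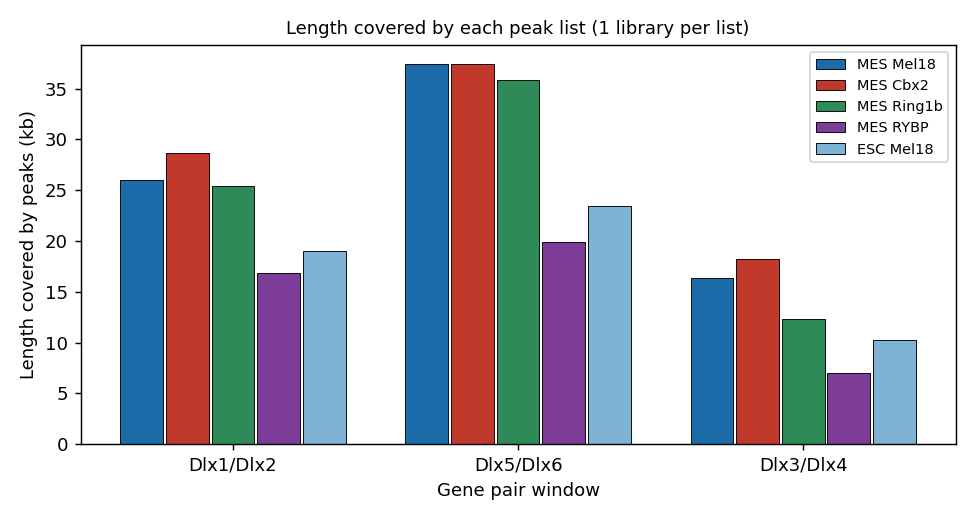
Length covered by peaks (kb, y axis) in each gene pair window (x axis), with 1 bar per peak list and 1 library per list, so no error bars. The Dlx5/Dlx6 bars are the tallest for each list, from 19.9 kb for RYBP to 37.5 kb for Cbx2, and the RYBP bar is the shortest in each window.

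The number of peaks did not follow the covered length in every list. It ranked the pairs as covered length did for Cbx2 and RYBP, but not for MES Mel18, Ring1b and ESC Mel18. The Dlx5/Dlx6 window held 4 MES Mel18, 4 Cbx2, 5 Ring1b, 7 RYBP and 9 ESC Mel18 peaks. The Dlx1/Dlx2 window held 5 MES Mel18, 3 Cbx2, 6 Ring1b, 5 RYBP and 3 ESC Mel18 peaks. The Dlx3/Dlx4 window held 3 MES Mel18, 2 Cbx2, 3 Ring1b, 3 RYBP and 4 ESC Mel18 peaks. At Dlx5/Dlx6, MES Mel18 had fewer peaks than ESC Mel18 and covered more sequence. Many neighbouring peaks were separated by very short gaps: MES Mel18 peaks at Dlx5/Dlx6 lay as close as 16 bp, and Ring1b peaks at Dlx1/Dlx2 as close as 16 bp. Covered length is therefore the main measure here, since splitting a stretch into more peaks changes it little.

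**Figure D2:**
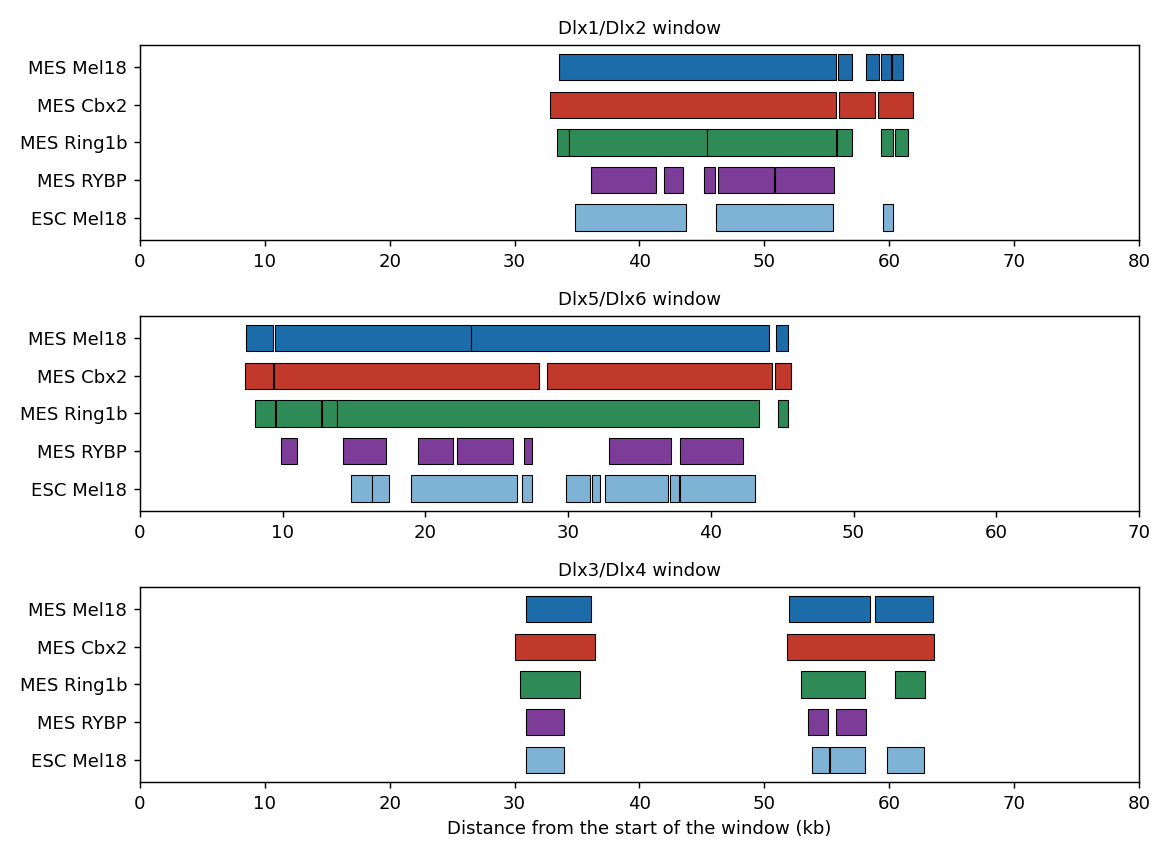
Map of all 66 peaks in the 3 windows, with distance from the start of the window on the x axis (kb) and 1 row per peak list, in which each box is 1 peak. MES Mel18, Cbx2 and Ring1b fill nearly all of a stretch of 37.3 to 38.2 kb at Dlx5/Dlx6, whereas the Dlx3/Dlx4 window holds 2 separate blocks in every list.

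The shape of the bound stretch differed between pairs. At Dlx5/Dlx6 the peaks of MES Mel18 ran from 6797464 to 6835424 and filled 98.5% of that stretch. Cbx2 peaks there ran from 6797386 to 6835626, and Ring1b peaks ran from 6798101 to 6835419 and filled 96.0%. RYBP peaks filled 61.4% of a shorter stretch (6799882 to 6832286), and ESC Mel18 peaks filled 82.7% of theirs (6804777 to 6833119). At Dlx1/Dlx2 the peaks of MES Mel18 ran from 71363563 to 71391100 and filled 94.4%. Cbx2 peaks filled 98.6% (71362868 to 71391904), Ring1b peaks 90.6% (71363420 to 71391469), RYBP peaks 86.3% (71366086 to 71385575) and ESC Mel18 peaks 74.8% (71364861 to 71390328). RYBP thus had no peak past the widest MES Mel18 and Cbx2 peaks, in a flank where every other list had at least 1. At Dlx3/Dlx4 a stretch of 15.3 kb from 94986481 to 95001822 had no peak of any list and parted the peaks into 2 blocks. The first block ran from 94980067 to 94986480 and the second from 95001823 to 95013619. Both edges of both blocks were those of Cbx2. RYBP peaks ended at 95008113, whereas the last peaks of MES Mel18 (95013543), Ring1b (95012836) and ESC Mel18 (95012749) reached further. Neither block was assigned to Dlx3 or Dlx4.

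The widest peaks of the MES lists at Dlx5/Dlx6 and Dlx1/Dlx2 were among the widest of their lists. The widest Ring1b member, at Dlx5/Dlx6 (6803810 to 6833379), spanned 29.6 kb and ranked 7 of 8641 Ring1b peaks by width. The widest MES Mel18 member, at Dlx1/Dlx2 (71363563 to 71385741), spanned 22.2 kb and ranked 29 of 4165, and the widest at Dlx5/Dlx6 (6813200 to 6834097) spanned 20.9 kb and ranked 34. The widest Cbx2 member, at Dlx1/Dlx2 (71362868 to 71385777), spanned 22.9 kb and ranked 33 of 3679, and that at Dlx5/Dlx6 (6799423 to 6817985) spanned 18.6 kb and ranked 55. Peaks of 10 kb or more were 3 of 12 MES Mel18 members, against 4.11% of the whole list, 4 of 9 Cbx2 members, against 5.65%, and 3 of 14 Ring1b members, against 1.69%. No RYBP or ESC Mel18 member reached 10 kb, and in the whole lists 0.144% and 0.713% did.

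The widest RYBP and ESC Mel18 members were narrower than the widest of the other lists. Members ranged from near the top of their lists to near the bottom. Narrower than the median peak of their list were 3 of 15 RYBP, 4 of 16 ESC Mel18 and 2 of 9 Cbx2 members. For MES Mel18 this held for 5 of 12 members and for Ring1b for 6 of 14. The widest RYBP member, at Dlx1/Dlx2 (71366086 to 71371298), spanned 5213 bp and ranked 105 of 7614. The widest ESC Mel18 member, also at Dlx1/Dlx2 (71376139 to 71385505), spanned 9367 bp and ranked 63 of 6593. At Dlx5/Dlx6 the widest RYBP peak (6827877 to 6832286) spanned 4410 bp and the widest ESC Mel18 peak (6808971 to 6816392) 7422 bp. The median member was wider than the median peak of its list in all 5 lists. MES Mel18 members had a median of 3269 bp (whole list 1855 bp) and Cbx2 members 6414 bp (2508 bp). Ring1b members had 1874 bp (1178 bp), RYBP members 2999 bp (1476 bp) and ESC Mel18 members 2250 bp (1103 bp). Narrow peaks were present too, since 28 of the 66 members spanned less than 2 kb. In the whole lists such a width is usual, as the median peak was itself below 2 kb in every list but Cbx2.

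At Dlx3/Dlx4 all 15 peaks were wider than the median peak of their list, but only a Cbx2 peak reached 10 kb. From 4.11% to 43.4% of the peaks of the same list were wider than these. At Dlx5/Dlx6, 18 of 29 peaks were wider than their list's median, and from 0.0694% to 96.8% of the list was wider than each. At Dlx1/Dlx2, 12 of 22 were wider than the median, and from 0.672% to 88.6% of the list was wider than each. The widest MES Mel18 peak at Dlx3/Dlx4 (95001957 to 95008432) spanned 6476 bp and ranked 310 of 4165. The Cbx2 peak over the whole second block of that window (95001823 to 95013619) spanned 11797 bp and ranked 165 of 3679. In the same window the widest Ring1b peak (95002911 to 95008066) spanned 5156 bp. The widest RYBP peak (94980921 to 94983985) spanned 3065 bp and the widest ESC Mel18 peak (94980924 to 94983981) 3058 bp. The last 2 peaks had nearly the same edges in different cell states, with starts 3 bp and ends 4 bp apart. Both edges lay within 10 bp of an ESC Mel18 peak for 4 of 7614 RYBP peaks (0.0525%), and this was the only such match in the windows among the 10 pairs of lists. This pair of peaks was singled out after its values were seen.

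The authors' score per peak, which is used here within a list alone because its scale was not stated, was at a common value of 3100 for many of these peaks. This value was held by 5 of 12 MES Mel18 members (8.64% of the whole list), 3 of 9 Cbx2 members (8.83%), 4 of 14 Ring1b members (3.29%) and 5 of 16 ESC Mel18 members (4.38%). For MES Mel18 these peaks lay in all 3 windows. For Cbx2 and ESC Mel18 none of them lay at Dlx3/Dlx4, where the highest Cbx2 score was 2944 and the highest ESC Mel18 score 2530. It was held by 0 of 15 RYBP members (0.0% of the whole list). The highest RYBP member, at Dlx1/Dlx2 (71380830 to 71385575), scored 778, and 2.21% of RYBP peaks scored higher. The highest RYBP score was 575 at Dlx5/Dlx6 and 332 at Dlx3/Dlx4, which 4.68% and 14.4% of RYBP peaks exceeded.

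The question the Mel18 lists address is how Mel18 binding compares before and after commitment to mesoderm. At all 3 pairs the MES Mel18 peaks took in nearly all bases of the ESC Mel18 peaks and added more. Of ESC Mel18 bases, MES Mel18 peaks covered 99.7% at Dlx1/Dlx2, 99.9% at Dlx5/Dlx6 and 99.8% at Dlx3/Dlx4, against 67.6% over the whole ESC list. The covered length in MES was 1.37 times that in ESC at Dlx1/Dlx2, 1.59 times at Dlx5/Dlx6 and 1.60 times at Dlx3/Dlx4. In the 1821 loci of the genome with peaks of all 5 lists, made by joining peaks of all lists within 10 kb, the median ratio was 1.24. Higher ratios were found in 39.1% of these loci for Dlx1/Dlx2 and in 25.5% for Dlx5/Dlx6. The Dlx3/Dlx4 window holds 2 such loci, with ratios of 1.69 in the first block and 1.56 in the second. Higher ratios than these were found in 21.0% and 27.3% of the loci. The ratios at the pairs were thus above the median and not extreme.

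ESC Mel18 peaks covered 62.7% of MES Mel18 bases at Dlx5/Dlx6, 73.0% at Dlx1/Dlx2 and 62.5% at Dlx3/Dlx4. Over the whole MES Mel18 list they covered 60.9%, so the share outside them was not larger at the pairs than in the list. The added Mel18 sequence lay in different places. At Dlx5/Dlx6, 13.9 kb (37.3%) of the MES Mel18 cover lay outside ESC Mel18 peaks. Of this, 7.20 kb lay before the first ESC Mel18 peak, 4.89 kb between ESC Mel18 peaks and 1.85 kb after the last. At Dlx1/Dlx2, 7.01 kb (27.0%) lay outside, with 1.30 kb before, 4.94 kb between and 0.772 kb after. At Dlx3/Dlx4, 6.13 kb (37.5%) lay outside. Counted by block, 2.13 kb followed the single ESC Mel18 peak of the first block. In the second block 1.83 kb lay before the first ESC Mel18 peak, 1.37 kb between ESC Mel18 peaks and 0.794 kb after the last. At Dlx5/Dlx6 and Dlx3/Dlx4 more of the added length thus lay beyond the outer ESC Mel18 peaks (9.05 and 4.76 kb) than between them (4.89 and 1.37 kb), and at Dlx1/Dlx2 less did (2.07 kb beyond and 4.94 kb between). At Dlx3/Dlx4 this holds by block; with the window taken as 1 stretch, 5.33 kb lay between ESC Mel18 peaks. Sequence covered in ESC and not in MES came to 0.057 kb at Dlx1/Dlx2 and 0.016 kb at each of the other pairs.

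**Figure D3:**
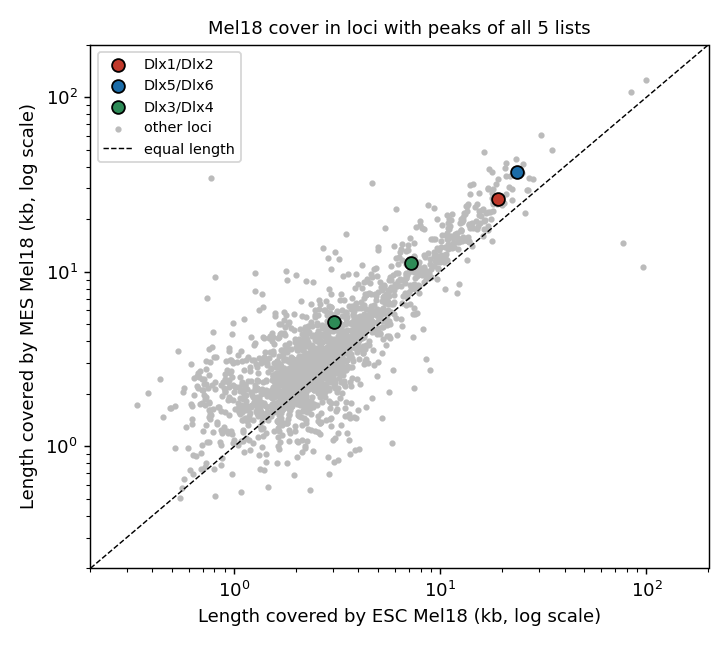
Length covered by MES Mel18 peaks (kb, y axis, log scale) against ESC Mel18 peaks (kb, x axis, log scale) in the 1821 loci with peaks of all 5 lists, in which each point is 1 locus and the dashed line marks equal length. The 4 Dlx loci, of which Dlx3/Dlx4 gives 2, lie above the line, and Dlx5/Dlx6 and Dlx1/Dlx2 lie near the upper end of both axes.

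Counted as peaks, all 16 ESC Mel18 members overlapped a MES Mel18 peak, against 52.6% of the whole list. Of the 12 MES Mel18 members, 8 overlapped an ESC Mel18 peak, which at 66.7% is close to the 66.3% of the whole list. The other 4 lay at the ends or flank of a stretch, and none was wider than the list's median peak of 1855 bp. At Dlx5/Dlx6 they were the first peak (6797464 to 6799318, 1855 bp) and the last (6834549 to 6835424, 876 bp). At Dlx1/Dlx2 they followed the widest peak (71385899 to 71386982, 1084 bp, and 71388173 to 71389192, 1020 bp). All 4 overlapped Cbx2 and none overlapped RYBP, and the peak from 71388173 had no Ring1b peak.

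The MES lists address which PRC1 subunits share the Mel18 sites of mesoderm precursors. Cbx2 lay at 12 of 12 MES Mel18 members (73.3% of the whole list), Ring1b at 11 (81.2%) and RYBP at 5 (72.4%). All of Cbx2, Ring1b and RYBP lay at 5 of the 12, against 57.7% of the whole list. The 7 MES Mel18 members without RYBP spanned 834 to 4683 bp, and the widest MES Mel18 peak of each window overlapped RYBP. In the other direction, all 15 RYBP members overlapped MES Mel18 (45.9% of the whole list), Cbx2 (45.7%) and Ring1b (76.0%). All 14 Ring1b members overlapped MES Mel18 (42.4%) and Cbx2 (40.6%), 6 overlapped RYBP (64.7%) and 7 overlapped ESC Mel18 (43.4%). All 9 Cbx2 members overlapped MES Mel18 (74.1%) and Ring1b (78.9%), 5 overlapped RYBP (75.0%) and 6 overlapped ESC Mel18 (64.7%). All 16 ESC Mel18 members overlapped Cbx2 (50.8%) and Ring1b (64.9%), and 12 overlapped RYBP (61.6%).

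In bases, MES Mel18, Cbx2 and Ring1b had nearly the same footprint at Dlx5/Dlx6, and Ring1b had a smaller one at Dlx3/Dlx4. At Dlx1/Dlx2 Cbx2 covered more than the others. MES Mel18 covered 89.81% and Ring1b 88.35% of Cbx2 bases there, against 74.55% and 69.38% over the whole Cbx2 list. Cbx2 peaks covered 98.6% of MES Mel18 bases at Dlx5/Dlx6, 98.9% at Dlx1/Dlx2 and 100% at Dlx3/Dlx4, against 84.7% over the whole MES Mel18 list. Ring1b peaks covered 95.5% at Dlx5/Dlx6, 95.2% at Dlx1/Dlx2 and 72.6% at Dlx3/Dlx4, against 79.4%. RYBP peaks covered 53.2%, 64.7% and 42.8% of MES Mel18 bases at these pairs, against 56.1%. The Dlx3/Dlx4 pair was thus the lowest for both Ring1b and RYBP. With 1 library per list this difference between pairs was not tested.

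The missing Ring1b cover at Dlx3/Dlx4 lay mostly in the second block. There MES Mel18 and Cbx2 peaks without any other list covered a segment before the Ring1b peaks (95001957 to 95002910, 954 bp) and another from 95008861 to 95009785 (925 bp), in a Ring1b gap of 2375 bp. The segment from 95010442 to 95012749 (2308 bp) was covered by MES Mel18, Cbx2, Ring1b and ESC Mel18 without RYBP. In all, MES Mel18 and Cbx2 without the other lists covered 3.78 kb at Dlx3/Dlx4, 20.7% of the sequence covered by any list. This compares with 1.69 kb (4.43%) at Dlx5/Dlx6 and 1.01 kb (3.49%) at Dlx1/Dlx2.

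RYBP peaks lay inside the stretches of the other MES subunits and close to the ESC Mel18 footprint. At least 99.3% of RYBP bases were covered by MES Mel18, by Cbx2 and by Ring1b at each pair, against 51.4%, 54.3% and 71.1% over the whole RYBP list. ESC Mel18 peaks covered 94.6% of RYBP bases at Dlx1/Dlx2, 90.8% at Dlx5/Dlx6 and 94.8% at Dlx3/Dlx4, against 52.2% over the whole list. Of the 15 RYBP members, 13 overlapped an ESC Mel18 peak, against 50.8% of the whole list. The 2 that did not lay at Dlx1/Dlx2 (71375187 to 71376032, 846 bp) and at Dlx5/Dlx6 (6799882 to 6801010, 1129 bp). Of the sequence covered by RYBP or MES Mel18, 64.7% at Dlx1/Dlx2, 53.2% at Dlx5/Dlx6 and 42.8% at Dlx3/Dlx4 was covered by both. For RYBP and ESC Mel18 these shares were 79.7%, 71.5% and 62.8%. Such shares also depend on covered length, which was shorter for ESC Mel18 than for MES Mel18 at each pair. They were not computed for the whole lists. The ratio of RYBP to Ring1b cover was 0.662 at Dlx1/Dlx2 and 0.556 at Dlx5/Dlx6. It was 0.636 and 0.523 in the first and second block of Dlx3/Dlx4, against a median of 0.809 in the 1821 loci. Lower ratios were found in 27.7% of these loci for Dlx1/Dlx2 and 15.5% for Dlx5/Dlx6. For the first and second block of Dlx3/Dlx4 the shares were 24.2% and 12.9%. The ratios at the pairs were thus below the median and not extreme.

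Taking all lists at once, the sequence common to all 5 was a core that was longest at Dlx5/Dlx6 and took the largest share at Dlx1/Dlx2. Peaks of any list covered 38.1 kb at Dlx5/Dlx6, of which 18.1 kb (47.4%) was covered by all 5. At Dlx1/Dlx2 the total was 29.0 kb and the common part 15.9 kb (54.9%), and at Dlx3/Dlx4 18.2 kb and 6.64 kb (36.4%). Sequence with MES Mel18, Cbx2 and Ring1b but neither RYBP nor ESC Mel18 came to 9.89 kb (26.0%) at Dlx5/Dlx6, 4.81 kb (16.6%) at Dlx1/Dlx2 and 1.99 kb (10.9%) at Dlx3/Dlx4. The longest such segment lay at Dlx5/Dlx6 (6801011 to 6802717, 1707 bp), before the first ESC Mel18 peak. Cbx2 alone covered 2.29 kb at Dlx1/Dlx2, 1.36 kb at Dlx3/Dlx4 and 0.56 kb at Dlx5/Dlx6, and its longest segment lay at Dlx1/Dlx2 (71387026 to 71388172, 1147 bp).

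**Figure D4:**
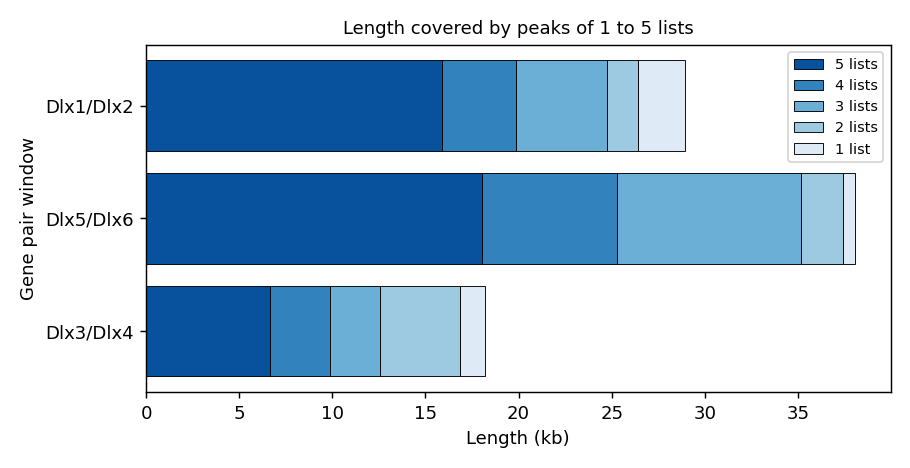
Length (kb, x axis) covered by peaks of exactly 1, 2, 3, 4 or 5 lists in each gene pair window (y axis), stacked with 5 lists first. The part covered by all 5 lists is 15.9 kb at Dlx1/Dlx2, 18.1 kb at Dlx5/Dlx6 and 6.64 kb at Dlx3/Dlx4.

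No member stood alone: of the 66 peaks, 40 overlapped a peak of each of the other 4 lists, 13 of 3 others, 12 of 2 others and 1 of 1 other. By list, the peaks with all 4 others were 5 of 12 for MES Mel18 (49.2% of the whole list), 5 of 9 for Cbx2 (53.1%), 5 of 14 for Ring1b (25.0%), 13 of 15 for RYBP (33.3%) and 12 of 16 for ESC Mel18 (38.3%). Peaks with all 4 others had a median width of 4782 bp (range 579 to 29570), and the other 26 had 1107 bp (range 592 to 4683). Of these 26 peaks, 23 had no RYBP overlap, 16 no ESC Mel18 overlap and 13 neither. The 26 included 2 RYBP and 4 ESC Mel18 peaks, which could not lack their own list. RYBP peaks overlapped 5 of 12 MES Mel18 members (72.4% of the whole list) and 5 of 9 Cbx2 members (75.0%). They overlapped 6 of 14 Ring1b (64.7%) and 12 of 16 ESC Mel18 members (61.6%). ESC Mel18 peaks overlapped 8 of 12 MES Mel18 members (66.3%) and 6 of 9 Cbx2 members (64.7%). They also overlapped 7 of 14 Ring1b (43.4%) and 13 of 15 RYBP members (50.8%). At Dlx3/Dlx4, 12 of 15 members had all 4 others, against 18 of 29 at Dlx5/Dlx6 and 10 of 22 at Dlx1/Dlx2. A wide peak can overlap more peaks than a narrow one, and peaks of 1 stretch are not independent.

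Set among all 10122 loci of the 5 lists joined within 10 kb, of which 1821 (18.0%) held peaks of all 5, the Dlx5/Dlx6 and Dlx1/Dlx2 loci were among the longest. By length covered by any list, Dlx5/Dlx6 ranked 18 and Dlx1/Dlx2 39, and the blocks of Dlx3/Dlx4 ranked 593 and 239. Of the loci with all 5 lists, 0.934% were longer than Dlx5/Dlx6, 2.09% than Dlx1/Dlx2, and 28.8% and 12.6% than the first and second block of Dlx3/Dlx4. By MES Mel18 cover, Dlx5/Dlx6 ranked 11 and Dlx1/Dlx2 36. By Cbx2 they ranked 17 and 34, by Ring1b 11 and 34, by RYBP 12 and 21, and by ESC Mel18 14 and 28. The 2 Dlx3/Dlx4 blocks would rank higher if counted as 1 locus, since the gap of 15.3 kb parts them under the 10 kb rule.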

How the data were processed

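The data were 5 peak lists, each from 1 ChIP-seq library. The IgG ChIP-seq library and the 9 RNA-seq libraries of the series were not analysed here. Chromatin was immunoprecipitated with 5 ug of antibody, per the labels' protocols, and both Mel18 libraries name the same antibody lot. Reads were placed on mm9, and Bowtie and TopHat were named, per the submitters' processing notes. The authors' deposited lists give chromosome, start, end, a name with the MACS tag and 1 score per peak. The caller's settings, its control, pooling and the scale of the score are not given in the sources used here. Scores in the deposited lists start near 50 and pile up at 3100 in 4 lists, and were used within a list alone.

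Starts are printed counting from 1. Peaks of a window were merged and clipped to it for the covered length. Overlap means at least 1 bp, and loci were made by joining peaks of all lists within 10 kb. Background shares are those of all peaks of a list. Tables were handled with pandas 2.3.3 and numpy 2.4.6 in Python 3.11.15, intervals of shares with scipy 1.17.1 and plots with matplotlib 3.10.9. The interval code was tested on 200 simulated sets (0 mismatches) and checked against bedtools 2.31.1 on 20 ordered pairs of lists (0 differences). The members, windows and alternatives were chosen with earlier results of these data known. Named were the widest peak of each list in each window, the outer ends of its peaks, and peaks that lacked a partner list, which were added after the values were seen.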

Additional observations from a re-analysis of the deposited data

How the results depend on the processing

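No paired analysis was possible because each list came from 1 library. Of 165 recomputed counts, covered lengths and ratios, 152 stayed within 1.5 times and 13, all of them counts of peaks, moved further. No ratio of MES to ESC Mel18 cover changed direction. The shares of peaks rest on 3 to 9 peaks, for which the exact 95% binomial interval is too wide to show stability. Of their 54 recomputed values, 8 left that interval and 14 moved by over 1.5 times. Joining peaks of a list within 1 kb lowered the number of peaks by construction. At Dlx1/Dlx2 it left 2 MES Mel18, 1 Cbx2, 2 Ring1b and 2 RYBP peaks, and at Dlx5/Dlx6 1 MES Mel18, 1 Cbx2, 2 Ring1b, 4 RYBP and 3 ESC Mel18 peaks. It brought the share of MES Mel18 peaks shared with ESC Mel18 to 100% at Dlx1/Dlx2 and Dlx5/Dlx6, and the share with Cbx2, Ring1b and RYBP to 100% at Dlx5/Dlx6 and Dlx3/Dlx4. With peak centres within 1 kb, that share was 0% at all 3 pairs, and 33.3% of ESC Mel18 peaks at Dlx1/Dlx2, 22.2% at Dlx5/Dlx6 and 50% at Dlx3/Dlx4 were shared with MES Mel18, against 100% at each pair under the 1 bp rule. Of MES Mel18 peaks, 25.0% at Dlx5/Dlx6 were then shared with ESC Mel18, against 50%. The centres of wide peaks lie far from those of narrow peaks inside them. At Dlx1/Dlx2 the upper 50% of each list by score left 3 MES Mel18 and 3 RYBP peaks, and lists of equal length left 3 RYBP peaks. The share of MES Mel18 peaks there that were shared with ESC Mel18 was 33.3% in the upper 50% and 25.0% in lists of equal length, against 60.0% in the full lists. The share there with Cbx2, Ring1b and RYBP was 33.3% in the upper 50% and 50% with peaks joined, against 20%. With the window widened by 20 kb on each side, Dlx3/Dlx4 held 5 MES Mel18 peaks. Read depth was unknown, so which differences it can account for was not tested.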
